A study of Mus musculus with 16 samples.

Results

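The genes described here are 50 protein subunits of the mitochondrial respiratory chain and ATP synthase, complexes I to V. Of these, 13 are encoded in the mitochondrial genome, symbols with the prefix mt-, and 37 in the nucleus. They were taken by gene symbol from the 55385 genes of the count table, and 50 of 50 passed the filter on low counts. The libraries are of poly-A RNA from the cortex of 16 mice at 9 months of age, with 4 mice (2 females, 2 males) for each of 4 genotypes. 5xFAD-Dp16 mice carried both of the alterations below. 5xFAD mice carry human transgenes, APP among them, with mutations that cause familial Alzheimer's disease. The Thy1 promoter drives these transgenes, so they are read chiefly in neurons. Dp16 mice carry a duplicated distal stretch of chromosome 16, whose genes have many of their counterparts on human chromosome 21, and are used to model trisomy 21. Wild-type C57BL/6J mice had neither alteration. No treatment is given for any group, and the sources used here do not state the background strain of the other 3 groups.

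The respiratory chain passes electrons from NADH and succinate to oxygen through complexes I to IV and pumps protons across the inner mitochondrial membrane, and ATP synthase, complex V, uses that gradient to make ATP. Its subunits come from both genomes: the mitochondrial genome encodes core membrane subunits of complexes I, III, IV and V, and complex II is wholly nuclear encoded. Neurons depend heavily on this pathway to sustain ion gradients and synaptic transmission.

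Library totals were 16874481 to 22912168 counts. Thy1 had 2002 ± 168 CPM in 5xFAD-Dp16, 1699 ± 200 in 5xFAD, 888 ± 120 in Dp16 and 810 ± 62.8 in wild-type (SD, n = 4 each), with CPM standing for counts scaled to the TMM-normalized library size, so the libraries with and without the Thy1-driven transgenes did not overlap. The 8 neuron markers used to check the tissue summed to 7520 to 10800 CPM over the 16 libraries. Microglia markers (5 genes) summed to 427 to 831 CPM in 5xFAD-Dp16 and 839 to 1190 in 5xFAD, against 312 to 374 in Dp16 and 326 to 418 in wild-type. Choroid plexus markers (5 genes) ran from 8.93 to 2250 CPM over the libraries. In bulk tissue, fewer cells of a type and less RNA per cell cannot be told apart.

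A stretch of nuclear chromosome 1 carries annotated near-identical copies of 7 of the 13 mitochondrial genes, and it bears on how their reads could be counted. The copies are annotated as unprocessed pseudogenes on the minus strand of chr1:24611535-24616197 (GRCm38, GENCODE M21). They keep the order of the mitochondrial genes, with no annotated copy of mt-Atp8 between those of mt-Co2 and mt-Atp6. Of the 7 alignments, 5 held 0 mismatches and 2 held 1 mismatch, at 99.71% to 100% identity. The sequences below show both kinds. A window of 60 bases inside mt-Co1 and the matching window of its copy Gm29216 differ by the base in capitals, and so do the windows of mt-Nd3 and its copy Gm28438; the windows of mt-Co2 and mt-Atp6 read the same in their copies Gm28661 and Gm10925. Each is the reference sequence, 5′ to 3′ along the gene.
mt-Co1 (chrM:6390-6449, plus strand): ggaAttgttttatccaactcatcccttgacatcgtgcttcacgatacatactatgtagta
Gm29216 (chr1:24616129-24616188, minus strand): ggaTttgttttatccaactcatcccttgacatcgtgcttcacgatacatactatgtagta
mt-Nd3 (chrM:9459-9518, plus strand): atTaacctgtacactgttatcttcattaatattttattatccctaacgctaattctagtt
Gm28438 (chr1:24613060-24613119, minus strand): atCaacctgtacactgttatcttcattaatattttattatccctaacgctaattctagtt
mt-Co2 (chrM:7323-7382, plus strand) and Gm28661 (chr1:24615196-24615255, minus strand): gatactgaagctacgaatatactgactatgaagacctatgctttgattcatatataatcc
mt-Atp6 (chrM:8236-8295, plus strand) and Gm10925 (chr1:24614283-24614342, minus strand): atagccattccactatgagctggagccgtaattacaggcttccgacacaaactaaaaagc
A fragment that lies inside a shared stretch and covers no mismatch cannot be assigned to either locus by its sequence. The copies of mt-Co2, mt-Atp6, mt-Co3, mt-Nd3 and mt-Nd4l spanned at least 99% of the gene, whereas Gm29216 matched 483 of 1545 bases of mt-Co1 and Gm28439 matched 876 of 1378 bases of mt-Nd4. A further copy of mt-Co1 on chromosome 2, Gm13340, was 97.6% identical over 1545 bases. No annotated copy at or above 97% identity over at least 100 bases was found for mt-Nd1, mt-Nd2, mt-Nd5, mt-Nd6, mt-Cytb or mt-Atp8. The search covered annotated transcripts only. mt-Atp8 lies between mt-Co2 and mt-Atp6, whose copies lie at chr1:24614885-24615565 and chr1:24613974-24614651. The bases between those copies were not searched, so a match to mt-Atp8 there cannot be told.

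Mitochondrial mRNA levels, given as RPKM (counts scaled to gene length and library total) averaged over the 16 libraries, differed by orders of magnitude between genes that are transcribed together as long precursors. mt-Co1, the catalytic subunit of complex IV, had 14976 RPKM. mt-Cytb, the core of complex III, had 10045 RPKM. Among the complex I membrane subunits, mt-Nd1 had 8644, mt-Nd2 5523, mt-Nd5 2806 and mt-Nd4 2134 RPKM. These 6 genes have no annotated chromosome 1 copy, or a copy of part of the gene.

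The 5 genes whose chromosome 1 copy spans them nearly in full were all far lower. The copper-binding complex IV subunit mt-Co2 had 309 RPKM and its partner mt-Co3 213 RPKM. The proton channel subunit of ATP synthase, mt-Atp6, had 138 RPKM. The complex I subunits mt-Nd3 and mt-Nd4l had 26.7 and 24.3 RPKM. mt-Atp8, which overlaps mt-Atp6 by 43 bases and lies between mt-Co2 and mt-Atp6 in the genome, had 66.9 RPKM without an annotated copy. Whether chromosome 1 holds an unannotated match to mt-Atp8 was not tested. mt-Nd6, the one subunit gene on the opposite strand, had 111 RPKM; it overlaps mt-Nd5 by 14 bases, and the sources used here do not state if counting was by strand.

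**Figure D1:**
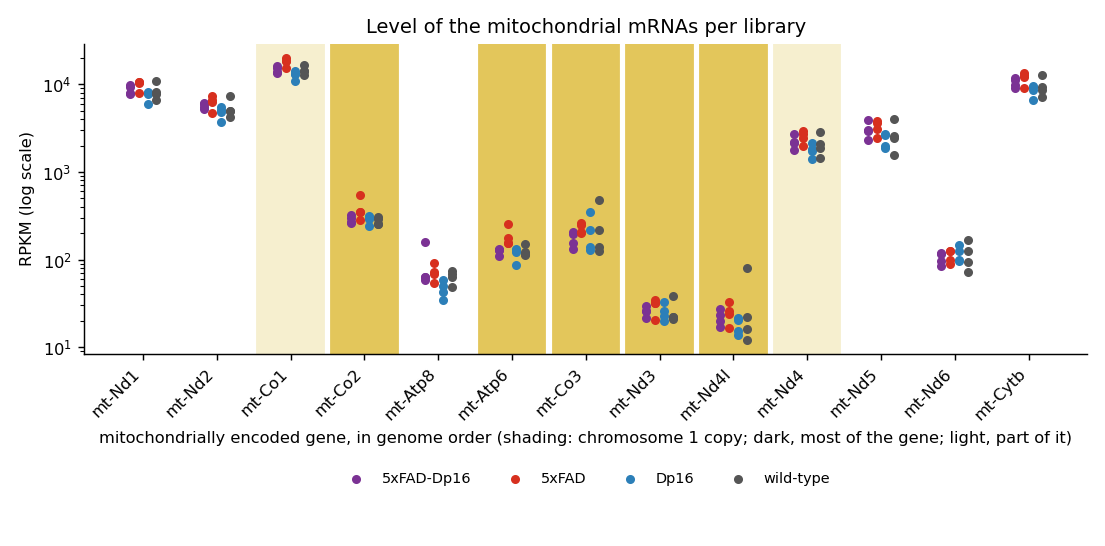
RPKM of the 13 mitochondrially encoded genes in genome order on a log axis, 1 point per library, coloured by genotype group. The darkly shaded genes have a chromosome 1 copy of nearly their whole length and average 24.3 to 309 RPKM. The lightly shaded mt-Co1 and mt-Nd4 have a partial copy and average 14976 and 2134 RPKM. Shading marks annotated copies only.

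The pseudogene copies had counts of their own. Gm10925 had 1668 to 9019 counts per library and mt-Atp6 had 1260 to 3800, a ratio of 0.934 to 7.16. Gm28437 had 1364 to 11632 counts and mt-Co3 1645 to 7330, a ratio of 0.656 to 3.18. Gm28661 had 0.493 to 0.801 of the counts of mt-Co2. Adding the copy's counts to the gene's gave an average of 511 RPKM for mt-Co2, 503 for mt-Co3, 378 for mt-Atp6, 57.8 for mt-Nd3 and 47.1 for mt-Nd4l, still below the 2155 RPKM of mt-Nd4 with its copy. By contrast, Gm29216 held 0.00214 to 0.0142 of the counts of mt-Co1. The sources used here do not state how reads that match more than 1 place were counted, so levels of these genes are uncertain and comparisons of level between mitochondrial genes carry that limit.

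For 4 mitochondrial genes without a near full-length copy on chromosome 1, values were as follows in single libraries, in the order of replicates 1 to 4. mt-Nd1 had 8614, 7732, 7374 and 9060 CPM in 5xFAD-Dp16, 10009.8, 10320, 10029 and 7479 in 5xFAD, 7453, 7756, 6128 and 7549 in Dp16, and 10351, 7328, 7315 and 7582 in wild-type. The 5xFAD libraries were higher than the other groups' except for replicate 4, and wild-type replicate 1 stood with them. mt-Cytb had 12370.5, 10299, 11070.5 and 12950.2 CPM in 5xFAD-Dp16, 14848, 14954, 13716 and 10100.3 in 5xFAD, 10258, 10761, 8125 and 9899.5 in Dp16, and 14363, 10492, 9515 and 9599 in wild-type. The same pair of libraries, 5xFAD replicate 4 and wild-type replicate 1, broke the order of the groups. mt-Co1 had 24114, 21502, 20390.5 and 23011 CPM in 5xFAD-Dp16, 27658, 31263, 28373 and 23113 in 5xFAD, 19627, 19886, 17909 and 22299 in Dp16, and 25464, 21254, 25306 and 19247 in wild-type. For mt-Co1, 3 of 4 5xFAD libraries lay above every library of the other groups. mt-Nd6 had 58.3, 50.7, 42.7 and 59.4 CPM in 5xFAD-Dp16, 63.6, 65.7, 45.7 and 49.5 in 5xFAD, 47.8, 63.1, 80.5 and 52.2 in Dp16, and 86.0, 47.8, 76.2 and 36.9 in wild-type. Its wild-type libraries alone spanned the full range, so the groups overlapped throughout.

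Nuclear subunit mRNAs lay between 42.7 and 1733 RPKM on average. The highest were Cox4i1 (1733 RPKM), a nuclear-encoded subunit of cytochrome c oxidase, Cox8a (1085 RPKM), a small subunit of the same complex, and Atp5b (873 RPKM), the catalytic beta subunit of ATP synthase. The lowest were Sdhc (42.7 RPKM), a membrane anchor of complex II, and Ndufs1 (58.4 RPKM), the large iron-sulfur subunit of complex I. By the same search as above, 10 of the 37 nuclear members shared a near-identical stretch with another annotated gene. The stretch covered 75.7% of the transcript for Ndufs3, 20.1% for Cox4i1 and 9.5% for Ndufs1. How reads from these stretches were counted is not stated either, so the levels of those 10 genes carry a like limit. Cox4i1 had 961, 1342, 888 and 1133 CPM in 5xFAD-Dp16, 860, 1570, 1217 and 1618 in 5xFAD, 897, 1067, 1934 and 1900.2 in Dp16, and 726, 1216, 3146 and 1110.1 in wild-type. Wild-type replicate 3 was the highest of the 16 libraries and wild-type replicate 1 the lowest, with the other groups in between. Sdhd, the other membrane anchor of complex II, had 114, 161, 116 and 121 CPM in 5xFAD-Dp16, 91.0, 145, 114 and 156 in 5xFAD, 116, 136, 227 and 211 in Dp16, and 80.7, 144, 322 and 115 in wild-type. The same pair of wild-type libraries marked both ends.

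Sdha, the flavin-binding catalytic subunit of complex II, ran the other way. It had 238, 222, 279.7 and 243 CPM in 5xFAD-Dp16, 269.7, 216, 282 and 223 in 5xFAD, 296, 248, 187 and 201 in Dp16, and 314, 243, 184 and 287 in wild-type. Wild-type replicate 3 was here the lowest library and wild-type replicate 1 the highest. Partners with a longer and a shorter coding sequence were compared in the other complexes too. By gene length some pairs were close, such as Uqcrc2 (1896 bases) and Uqcrq (1827 bases) in complex III.

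In complex I, Ndufs1 had 156, 177, 166 and 139 CPM in 5xFAD-Dp16, 137, 173, 162 and 163 in 5xFAD, 154, 171, 172 and 180.4 in Dp16, and 149, 169.6, 209 and 164 in wild-type, a 1.52-fold range. The small membrane-arm subunit Ndufa1 had 127, 155, 117 and 136 CPM in 5xFAD-Dp16, 117, 178, 124 and 160.1 in 5xFAD, 103, 134, 209.8 and 199 in Dp16, and 96.2, 148, 302 and 124 in wild-type, a 3.14-fold range. Both were highest in wild-type replicate 3, and all 4 groups overlapped.

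In complex III, the core protein Uqcrc2 had 321, 455, 331 and 354 CPM in 5xFAD-Dp16, 257, 405, 318 and 419.5 in 5xFAD, 306, 399, 614 and 566 in Dp16, and 267, 382, 826 and 333 in wild-type. The small subunit Uqcrq had 210.0, 278, 191 and 236 CPM in 5xFAD-Dp16, 179, 313, 219 and 306 in 5xFAD, 199, 244, 387 and 372 in Dp16, and 153, 242, 634 and 224 in wild-type. For both, wild-type replicate 3 was followed by Dp16 replicates 3 and 4, the 3 libraries with the lowest length slopes, a measure defined further on.

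Complexes IV and V were followed through Cox8a, Atp5b and Atp5d. Cox8a had 535, 607, 484 and 518 CPM in 5xFAD-Dp16, 523, 761, 615 and 647 in 5xFAD, 510.4, 538, 667 and 659 in Dp16, and 465, 568, 957 and 565 in wild-type. Atp5b had 1549, 1823, 1589.8 and 1390.2 CPM in 5xFAD-Dp16, 1419, 1739, 1495 and 1663 in 5xFAD, 1577, 1718, 1832 and 1975 in Dp16, and 1428, 1732, 2339.8 and 1636 in wild-type. Atp5d, the delta subunit of the central stalk, had 323, 313, 281 and 262 CPM in 5xFAD-Dp16, 273, 318, 244 and 286 in 5xFAD, 309.8, 336, 299 and 327 in Dp16, and 285, 326, 384 and 279.6 in wild-type. The 3 genes spanned 2.06-fold, 1.68-fold and 1.58-fold, again with wild-type replicate 3 highest. The widest range was that of Cox7b, a small complex IV subunit on the X chromosome (6.19-fold), and the narrowest that of Atp5a1, the alpha subunit of ATP synthase (1.24-fold).

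The balance of both genomes varied between libraries more than between groups. Mitochondrially encoded members took 5.80% ± 0.61 of counts in 5xFAD-Dp16, 6.73% ± 0.87 in 5xFAD, 4.89% ± 0.60 in Dp16 and 5.47% ± 1.05 in wild-type (SD, n = 4 each). The nuclear members took 1.19% ± 0.13, 1.23% ± 0.22, 1.41% ± 0.28 and 1.39% ± 0.52 in the same order of groups. The ratio of mitochondrial to nuclear counts averaged 4.95 ± 0.82 in 5xFAD-Dp16, 5.69 ± 1.59 in 5xFAD, 3.61 ± 1.05 in Dp16 and 4.49 ± 2.24 in wild-type. Wild-type replicates 3 and 1 held both extremes of the 16 libraries, at 2.15 and 7.54. On the log2 CPM scale, the mean of the mitochondrial members exceeded that of the nuclear members by 0.85 ± 0.21 in 5xFAD-Dp16, 1.05 ± 0.35 in 5xFAD, 0.42 ± 0.36 in Dp16 and 0.67 ± 0.69 in wild-type. The groups overlapped in this measure, and as a score over chosen members it was not tested.

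**Figure D2:**
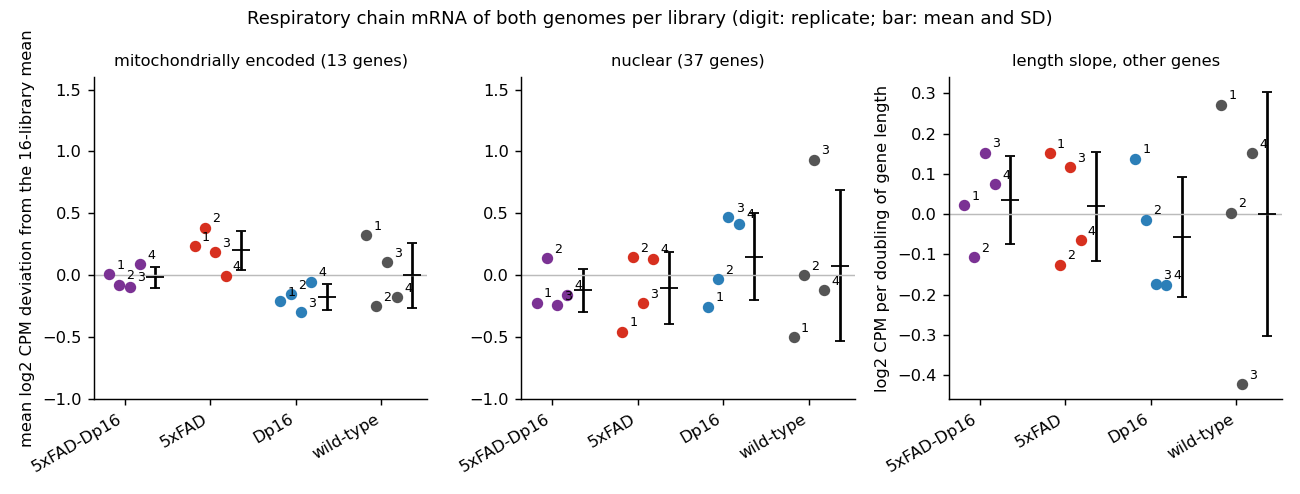
Mean log2 CPM deviation of the 13 mitochondrial members (left) and the 37 nuclear members (middle) from the mean of the 16 libraries, and the length slope of each library (right), by group, with the replicate number beside each point and the group mean and SD as a bar. Wild-type replicate 3 is highest for the nuclear members and lowest in length slope, and wild-type replicate 1 is lowest for the nuclear members and highest in length slope.

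Gene length was followed as a technical factor through the length slope of each library, obtained by regressing, over 12009 other nuclear genes, the deviation of their log2 CPM in that library on the log2 of their length. A positive slope means that long genes are relatively high in that library. Slopes were 0.02, −0.11, 0.15 and 0.07 in 5xFAD-Dp16 replicates 1 to 4, 0.15, −0.13, 0.12 and −0.06 in 5xFAD, 0.14, −0.01, −0.17 and −0.18 in Dp16, and 0.27, 0.00, −0.42 and 0.15 in wild-type. The groups overlapped, and wild-type replicate 3 stood lowest.

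Across the 16 libraries, the mean of the nuclear members followed the slope with a Pearson r of −0.965 and a Spearman rho of −0.932, and r was −0.924 without wild-type replicates 3 and 1, the libraries farthest from the median slope. Both quantities come from the same libraries and share their depth and normalization, so the correlation is a description. Singly, 32 of 37 nuclear members had r below −0.8 (86.5%), against 20.3% of the 12009 other nuclear genes. The slope is itself a regression on gene length, and the nuclear members were shorter. Their median was 1291 bases (419 to 3171), against 3488 (57 to 123179) for the other genes. The shares therefore do not compare genes of like length. The exceptions were Sdha (r = 0.946), Atp5a1 (−0.35), Ndufv1 (−0.65), the NADH-binding subunit of complex I, Uqcrc1 (−0.67), a core protein of complex III, and Atp5d (−0.72). Length alone did not order the members. Over the 37, r with the slope correlated with gene length, the measure behind the slope, at a Pearson r of 0.383 and a Spearman rho of 0.188. With coding length the values were a Pearson r of 0.449 and a Spearman rho of 0.376, and genes are not independent replicates. Sdhc, the longest member by gene length (3171 bases), had the most negative r (−0.977). The 7 members with coding lengths above 1300 bases ran from −0.95 to 0.946, with a median of −0.67. Sdha (chr13:74322254-74350280) and Ndufs1 (chr1:63143596-63176833, r = −0.82) have the longest coding sequences, 1992 and 2181 bases, and lay on opposite sides of 0.

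The mitochondrial members as a group did not share this relation. Their mean had an r of 0.115 with the slope (rho 0.08, and r = 0.07 without the same pair of libraries). Singly they ran from −0.81 for mt-Nd3 and −0.80 for mt-Co3 to 0.69 for mt-Nd4 and 0.78 for mt-Nd5, the longest mitochondrial gene. As a result the difference between the genomes followed the slope at r = 0.826 (rho 0.738, and 0.693 without the pair). The mitochondrial ribosomal RNAs, mt-Rnr1 and mt-Rnr2, which carry short poly-A tails, took 1.40% to 4.44% of counts, and that share had an r of −0.929 (rho −0.882, and −0.888 without the pair). Astrocyte and endothelium marker sums had r of 0.845 and 0.843, and the neuron marker sum −0.49. What sets the slope was not tested.

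**Figure D3:**
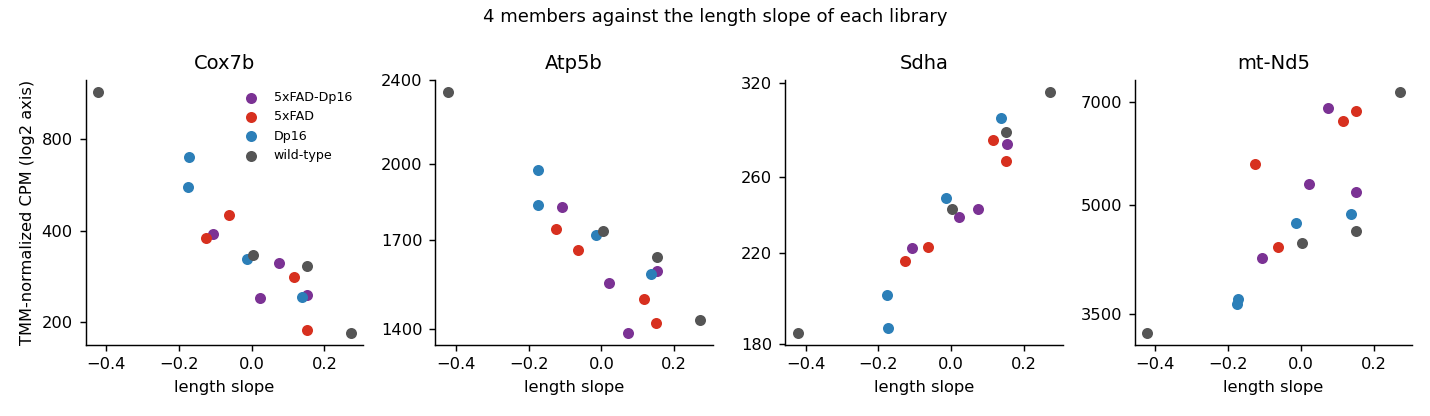
TMM-normalized CPM on a log2 axis against the length slope, 1 point per library coloured by group, for Cox7b, Atp5b, Sdha and mt-Nd5. Cox7b (r = −0.937) and Atp5b (r = −0.904) are high where the slope is low, whereas Sdha (r = 0.946) and mt-Nd5 (r = 0.777) are low there.

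In 5xFAD against wild-type cortex, mitochondrially encoded members lay mostly above 0 and nuclear members below 0, and no member passed the test. edgeR's quasi-likelihood test called 0 of 50 members at an adjusted p under 0.05, against 1.52% of the 17555 genes tested (266 genes, 264 of them higher). At an unadjusted p under 0.05 it had 1 member (7.1% of all genes), and DESeq2 called 0. The median log2 fold change was 0.22 for the mitochondrial members (10 of 13 above 0), −0.30 for the nuclear members (37 of 37 below 0) and −0.05 for all genes tested. mt-Atp6 had 101, 123, 104 and 167 CPM in 5xFAD, against 102, 80.9, 91.7 and 75.1 in wild-type. The groups overlapped at 5xFAD replicate 1 and wild-type replicate 1, and 5xFAD replicate 4 was the highest library. Its log2 fold change was 0.49 ± 0.18 (SE, edgeR adjusted p = 0.372, or 0.0727 to 0.998 across alternatives). With the counts of its chromosome 1 copy added, a setting picked once the data had been seen, the log2 fold change of mt-Atp6 became 0.06 ± 0.36. mt-Co2 had 0.41 ± 0.19 (adjusted p = 0.702), 0.39 ± 0.18 with its copy and 0.17 without 5xFAD replicate 2.

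The nuclear members of smallest p were Uqcrc1 (−0.24 ± 0.15), Cox5a (−0.36 ± 0.22), a complex IV subunit, and Cyc1 (−0.37 ± 0.27), the cytochrome c1 of complex III, with edgeR adjusted p of 0.878 or more. Cox5a had 150, 191, 161 and 186 CPM in 5xFAD, against 152, 193, 344 and 192 in wild-type. One wild-type library, replicate 3, set the difference of the group means. Without it the nuclear median turned to 0.14, with 7 of 37 below 0, whereas the mitochondrial median was 0.20. The nuclear median was −0.16 without 5xFAD replicate 1 and −0.48 without wild-type replicate 1, where the mitochondrial median was 0.33. By complex, the nuclear medians were −0.33 for complex I, −0.24 for complex II, −0.30 for complex III, −0.27 for complex IV and −0.18 for complex V. Ndufa4 was counted with complex I here, and its placement was not examined. Neuron markers summed to 7560 to 7970 CPM in 5xFAD, against 8780 to 10800 in wild-type, with 8 of 8 markers tested, and the microglia sums given above did not overlap either. The part of cell composition in these values was not tested.

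Once the length slope was added as a covariate, the common biological coefficient of variation was 0.16, against 0.292 without it, and 0 of 50 members were called, against 5.5% of all genes. At an unadjusted p under 0.05 this fit had 6 of 13 mitochondrial members higher, where the share of all genes was 9.68%, and 12 of 37 nuclear members lower, where it was 9.43%. The medians were 0.22 and −0.17. Cox5a (−0.27 ± 0.08, edgeR adjusted p = 0.0518) and Cyc1 (−0.23 ± 0.07, adjusted p = 0.0609) came nearest to the threshold among nuclear members and mt-Atp6 (0.49 ± 0.15, adjusted p = 0.0727) among mitochondrial ones. The slope was computed from the same counts, so this fit is not independent of them. In no comparison was it run with a library left out. How far its values rest on wild-type replicate 3, the library of lowest slope, was therefore not tested.

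In 5xFAD-Dp16 against wild-type cortex, the nuclear members again lay below 0 and the mitochondrial members around it. edgeR called 0 of 50 members, against 0.501% of the genes tested, had 0 members at an unadjusted p under 0.05 (4.52% of all genes), and DESeq2 called 0. The nuclear median was −0.35 (37 of 37 below 0) and the mitochondrial median −0.02 (6 of 13 above 0). Cox7b had 240.5, 392, 247 and 314 CPM in 5xFAD-Dp16, against 185, 333, 1145 and 305 in wild-type. The 5xFAD-Dp16 libraries lay within the wild-type range. Its log2 fold change was −0.70 ± 0.49 (edgeR adjusted p = 1.00, or 0.0725 to 1 across alternatives). The complex I accessory subunits Ndufb8 (−0.65 ± 0.43) and Ndufb9 (−0.60 ± 0.41) were alike, and among mitochondrial members mt-Co3 had −0.60 ± 0.44 and mt-Nd4l −0.54 ± 0.40, or −0.32 ± 0.51 and −0.30 ± 0.32 with the counts of their copies. Without wild-type replicate 3 the nuclear median turned to 0.15, with 2 of 37 below 0, and without wild-type replicate 1 the medians were −0.54 for the nuclear and 0.12 for the mitochondrial members. In the fit with the length slope 0 members were called, against 2.06% of all genes, the nuclear median was −0.13 and 5 of 37 nuclear members were lower at an unadjusted p under 0.05, with 3.2% of all genes.

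Within Dp16 mice, 5xFAD-Dp16 against Dp16, edgeR called 0 of 50 members, against 0.387% of the genes tested, with 1 member at an unadjusted p under 0.05 (3.92% of all genes), and DESeq2 called 0. The mitochondrial median was 0.17 (9 of 13 above 0) and the nuclear median −0.33 (36 of 37 below 0). Without Dp16 replicate 3 the mitochondrial median was 0.07, and the other libraries left out gave 0.14 to 0.23. The 5xFAD and wild-type libraries enter this comparison through the shared filter, scaling, estimate of spread and sex term, and with only the compared groups in the fit the nuclear median was −0.35. The member of smallest p was mt-Atp8, an ATP synthase membrane subunit, at 0.83 ± 0.30 (edgeR adjusted p = 0.705, or 0.0733 to 1 across alternatives). It had 12.5, 12.9, 32.2 and 11.6 CPM in 5xFAD-Dp16, against 8.45, 10.02, 7.49 and 12.03 in Dp16. One library, 5xFAD-Dp16 replicate 3, lay far above the other 3, which overlapped the Dp16 libraries, and without it the log2 fold change of mt-Atp8 was 0.38. mt-Nd5 had 0.34 ± 0.22, the complex III iron-sulfur protein Uqcrfs1 −0.33 ± 0.22, Cox5a −0.31 ± 0.22 and the complex I subunit Ndufb5 −0.42 ± 0.32. The nuclear median lay between −0.48 and −0.20 with each library left out in turn. Under the slope covariate the nuclear median was −0.09, 0 members were called (1.22% of all genes), and at an unadjusted p under 0.05 there were 2 mitochondrial members higher (4.68% of all genes) and 1 nuclear member lower (1.78%). The median was 0.03 without the 3 libraries of lowest slope (wild-type replicate 3 and Dp16 replicates 3 and 4).

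In Dp16 against wild-type cortex, edgeR called 0 of 50 members, against 0.0057% of the genes tested (1 gene), had 0 at an unadjusted p under 0.05 (2.2% of all genes), and DESeq2 called 0. The mitochondrial median was −0.19 (11 of 13 below 0) and the nuclear median −0.02 (22 of 37 below 0), with −0.03 for all genes tested. The sign of the nuclear median depended on the processing. It was 0.10 (2 of 37 below 0) with limma on log2(RPKM + 0.1) and 0.03 (11 of 37) with a replicate block. The mitochondrial median was −0.06 without wild-type replicate 1 and −0.08 without Dp16 replicate 3. mt-Nd4l had 6.13, 5.98, 4.37 and 4.65 CPM in Dp16, against 23.6, 4.65, 4.23 and 6.48 in wild-type. Wild-type replicate 1 stood apart, and the other 3 wild-type libraries overlapped the Dp16 libraries. Its log2 fold change was −0.76 ± 0.41, but −0.0026 without wild-type replicate 1 and −0.30 ± 0.32 with the counts of its copy; mt-Atp8 had −0.51 ± 0.30, Sdha −0.14 ± 0.19, the complex I subunit Ndufs3 0.12 ± 0.19 and Cox8a −0.11 ± 0.21. Without wild-type replicate 3 the nuclear median became 0.52. In the slope fit 0 members were called, against 0.256% of all genes, and the medians were −0.14 for the mitochondrial and −0.04 for the nuclear members.

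In 5xFAD-Dp16 against 5xFAD cortex, the mitochondrial members lay below 0 and the nuclear members around it. edgeR called 0 of 50 members, against 0.0057% of the genes tested, with 3 members, all mitochondrial and lower, at an unadjusted p under 0.05 (3.59% of all genes), and DESeq2 called 0. The mitochondrial median was −0.21 (12 of 13 below 0) and the nuclear median 0.00 (17 of 37 below 0). mt-Atp6 had 84.6, 88.7, 73.5 and 87.2 CPM in 5xFAD-Dp16, against 101, 123, 104 and 167 in 5xFAD. The groups did not overlap, and mt-Atp6 was the one member of 50 lower without overlap, where the share over all genes was 1.48%. Its log2 fold change was −0.56 ± 0.18 (edgeR adjusted p = 1.00, or 0.114 to 1 across alternatives). Summed with Gm10925 it had 4142, 8424, 3098 and 4098 counts in 5xFAD-Dp16, against 5891, 5270.0, 5031 and 7742 in 5xFAD, so the sums overlapped at 5xFAD-Dp16 replicate 2, and the log2 fold change was −0.25 ± 0.36. mt-Co2 had −0.43 ± 0.19, but −0.18 without 5xFAD replicate 2, and mt-Co1, which shares few counts with its copies, −0.31 without and with the chromosome 1 copy. Of the nuclear members, Uqcrc1 had 0.20 ± 0.15, Cox8a −0.25 ± 0.21 and the complex I subunit Ndufa10 0.16 ± 0.15. Adding the length slope left 0 members called, against 0.718% of all genes. That fit had 4 mitochondrial and 1 nuclear member lower at an unadjusted p under 0.05 (6.55% of all genes) and 2 nuclear members higher (6.49%), with a nuclear median of 0.05. The nuclear median was −0.13 without 5xFAD replicate 1.

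The interaction of both genotypes asks whether the 5xFAD difference is the same with and without Dp16. edgeR called 0 of 50 members, as of the 17555 genes tested (0%), had 0 members and 239 genes (1.36%) at an unadjusted p under 0.05, and DESeq2 called 0 members. The smallest p among mitochondrial members were those of mt-Atp8 (0.74 ± 0.42, and 0.27 without 5xFAD-Dp16 replicate 3) and mt-Atp6 (−0.43 ± 0.25), and of the nuclear members Uqcrc1 had 0.17 ± 0.21, Ndufa2, a complex I subunit, −0.25 ± 0.46 and Cox8a −0.14 ± 0.29. The nuclear median was −0.02, and it ran from −0.49 without wild-type replicate 3 to 0.15 without wild-type replicate 1. The 5 pairwise comparisons share groups, so their medians are not independent of each other.

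**Figure D4:**
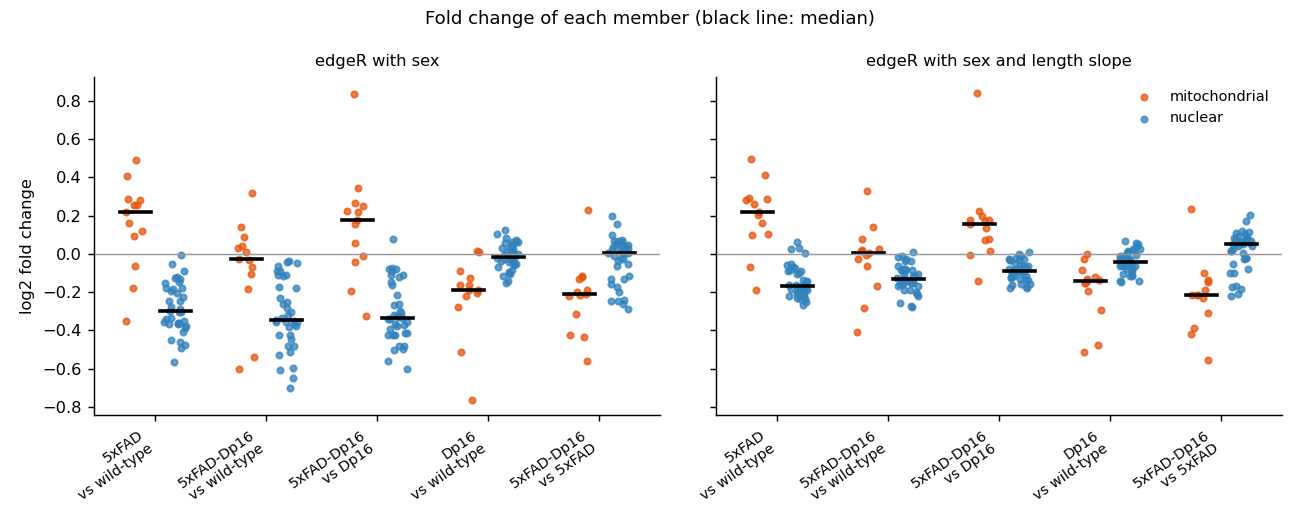
log2 fold change of each of the 13 mitochondrial and 37 nuclear members in 5 comparisons, without (left) and with (right) the length slope as a covariate; black lines are medians. The nuclear median is −0.30 without and −0.17 with the slope for 5xFAD against wild-type, and the mitochondrial median is 0.22 in both.

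No member lies in the duplicated part of chromosome 16, but 5 genes of the same pathway do: the ATP synthase subunits Atp5j (chr16:84827866-84835625) and Atp5o (chr16:91925214-91931687), the mitochondrial ribosomal proteins Mrpl39 and Mrps6, and Gabpa, a subunit of the transcription factor that binds promoters of many respiratory chain genes. Atp5j had 258, 293, 492 and 442 CPM in Dp16, against 140, 201, 435 and 192 in wild-type. In the 5xFAD pair it had 251, 347, 261 and 306 CPM in 5xFAD-Dp16, against 156, 227, 182 and 234 in 5xFAD. The 5xFAD-Dp16 libraries lay above those of 5xFAD without overlap, as did those of 1.73% of all genes, whereas wild-type replicate 3 overlapped the Dp16 libraries. For Dp16 against wild-type edgeR called 0 of the 5, and their log2 fold changes were 0.62 ± 0.31 for Atp5j, 0.54 ± 0.37 for Atp5o, 0.56 ± 0.20 for Mrpl39, 0.56 ± 0.38 for Mrps6 and 0.34 ± 0.22 for Gabpa.

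After the length slope was added, Atp5j (0.58 ± 0.10, edgeR adjusted p = 0.0049), Atp5o (0.53 ± 0.09, adjusted p = 0.00611) and Mrpl39 (0.52 ± 0.08, adjusted p = 0.00319) rose in Dp16, where the share of all genes called higher was 0.245%. Mrps6 (0.55 ± 0.12, adjusted p = 0.0556) and Gabpa (0.46 ± 0.15, adjusted p = 0.503) did not pass. For 5xFAD-Dp16 against 5xFAD the same fit called Atp5j (0.60 ± 0.10), Atp5o (0.64 ± 0.09), Mrpl39 (0.72 ± 0.08) and Mrps6 (0.75 ± 0.12) with edgeR adjusted p of 0.0023 or less, and not Gabpa (0.43 ± 0.14, adjusted p = 0.175). The share of all genes called higher there was 0.427%. These 5 were chosen by their place in the duplicated segment, where the duplication adds a copy of the gene. The fit without the slope called 0 of the 5 in this comparison too, and with only the 5xFAD-Dp16 and 5xFAD libraries in the fit it called Mrpl39. Beside them, the 4 nuclear complex V members, which lie elsewhere, had log2 fold changes of 0.02 to 0.10 in the fit with the slope for 5xFAD-Dp16 against 5xFAD.

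**Figure D5:**
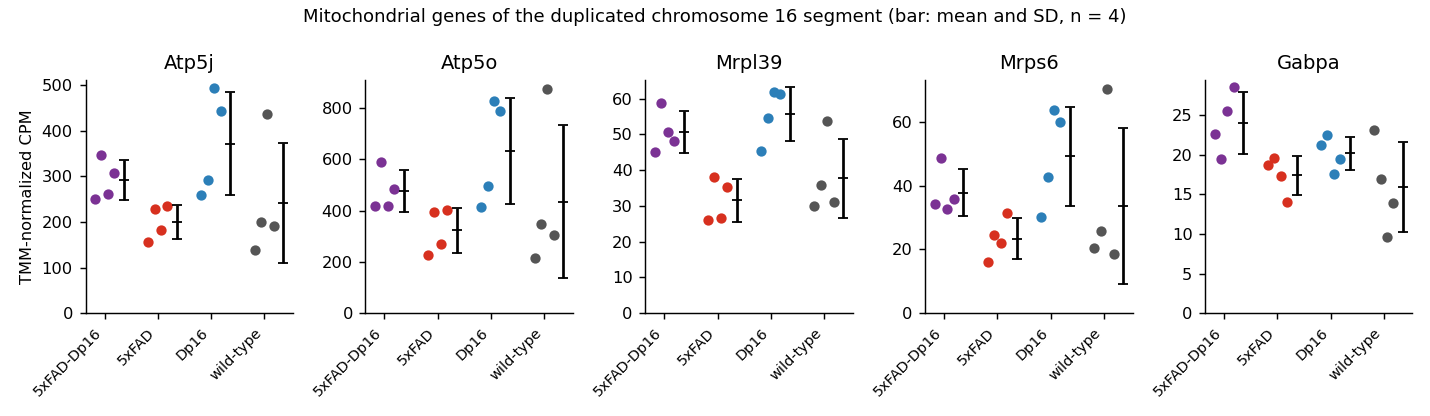
TMM-normalized CPM of Atp5j, Atp5o, Mrpl39, Mrps6 and Gabpa per library by group, with the mean and SD (n = 4) as a bar. For Atp5j the 5xFAD-Dp16 libraries (251 to 347) lie above the 5xFAD libraries (156 to 234), and the highest wild-type library (435) lies among the Dp16 libraries.

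Other genes of the pathway were counted in the same way. For 5xFAD against wild-type, 20 of 20 further complex I subunits lay below 0 with a median of −0.32, 12 of 12 further complex V subunits with a median of −0.37, and 9 of 9 further complex III and IV subunits with cytochrome c with a median of −0.30. Of the mitochondrial ribosomal proteins, 77 of 77 tested lay below 0, with a median of −0.30. edgeR called 0 genes of these lists, against 1.52% of all genes tested. This direction, like that of the nuclear members, turned without wild-type replicate 3: the medians became 0.21 for complex I (0 of 20 below 0), 0.21 for complex V (0 of 12), 0.31 for complexes III and IV (0 of 9) and 0.13 for the ribosomal proteins (11 of 77). In the slope fit they were −0.13, −0.17, −0.07 and −0.17. Assembly factors had a median of −0.27 (29 of 35 below 0), factors that maintain and express the mitochondrial genome −0.08 (13 of 21), tricarboxylic acid cycle enzymes −0.13 (12 of 15) and regulators of nuclear respiratory genes −0.06 (5 of 9), also with 0 called. Without wild-type replicate 3 these medians were 0.10, 0.03, −0.0036 and −0.07.

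In the fit with the length slope, 2 of 35 assembly factors fell in 5xFAD: Atpaf1, which helps assemble the F1 part of ATP synthase (−0.35 ± 0.09, edgeR adjusted p = 0.0142), and Ttc19, a complex III factor (−0.36 ± 0.09, adjusted p = 0.0117). Of 77 mitochondrial ribosomal proteins 3 fell, Mrpl12 (−0.35 ± 0.08, adjusted p = 0.00706), Mrpl3 (−0.29 ± 0.08) and Mrpl43 (−0.27 ± 0.07). In the tricarboxylic acid cycle Idh3a, a subunit of the NAD-dependent isocitrate dehydrogenase, fell (−0.32 ± 0.08, adjusted p = 0.0189) and Suclg2, a succinyl-CoA ligase subunit, rose (0.37 ± 0.10, adjusted p = 0.0357). The share of all genes called lower in that fit was 1.42%, and the share called higher 4.08%. In 5xFAD-Dp16 against wild-type, edgeR without the slope called 0 genes of these lists, where 0.501% of all genes were called. The slope fit called Esrra, a nuclear receptor that drives respiratory genes, lower (−0.31 ± 0.07, adjusted p = 0.0209), where 0.103% of all genes were called lower, and the duplicated Gabpa higher (0.59 ± 0.14, adjusted p = 0.026), along with Atp5j, Atp5o, Mrpl39 and Mrps6, where 1.96% were called higher. Of 22 mitochondrial tRNA genes 9 were tested, and the slope fit called 1, mt-Tw, lower (−0.65 ± 0.17, edgeR adjusted p = 0.0396). In the fit without the slope the median of these 9 was −0.69 (9 of 9 below 0). Without wild-type replicate 3 that median was 0.03 (4 of 9 below 0). The slope fit was not run without that library, so its calls in these lists carry that limit.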

How the data were processed

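Per the labels' protocols, cortex RNA was extracted with TRIzol, enriched for poly-A, and prepared as stranded libraries for paired-end sequencing. Per the submitters' processing notes, the tools included HISAT2 2.1.0 and HTSeq 0.6.1 with build GRCm38; FastQC 0.11.5, SAMtools 1.5 and bcl2fastq are also named, and no settings are given. The authors deposited raw read counts per gene, and RPKM values that are these counts scaled by gene length and library total. Counts divided by RPKM gave whole gene lengths to within 7.9e-10.

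Columns were matched to libraries by title; groups, sexes and replicate numbers came from the labels. edgeR 4.0.16 (R 4.3.3) tested counts by its quasi-likelihood test with TMM factors, filterByExpr (minimum count 10), sex as a covariate and all 16 libraries; a gene was called at a Benjamini-Hochberg adjusted p under 0.05 over 17555 genes. Errors of fold changes are SE, and, since the labels do not tie mice to litters or cohorts, p-values measure the spread between these libraries. Alternatives were DESeq2 1.42.0, limma 3.58.1 on log2(RPKM + 0.1) and log2(RPKM + 1), RLE factors, library sizes from nuclear genes, no low-count filter, a fit without sex, a replicate block, the compared groups only, the length slope, and each library left out. The test was run on simulated data with known changes. Genes were drawn there independently and without a length slope, so that check cannot show how the test behaves under the slope seen here. Copies were found with blastn 2.17.0 among GENCODE M21 transcripts (at least 97% identity over 100 bases).

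Members and lists were chosen with earlier results of these data known. Named genes were the members of smallest p in each comparison (2 mitochondrial and 3 nuclear), a fixed set of levels, the 5 genes of the duplicated segment, and up to 2 called genes of each other list; Cox7b, Atp5a1, mt-Nd3, mt-Co3, Mrpl43 and the genes named for their level, range, slope or copy were chosen after their values were seen.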

Additional observations from a re-analysis of the deposited data

Results flagged for a closer look

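In a group of 4 libraries, 1 library lay far from the other 3 in 16 of 236 group and measure combinations examined, and chance flags about 1 in 20. The combinations are not independent, since 32 of 37 nuclear members had r below −0.8 with the length slope. A single library that departs can thus flag many genes at once. Most of the 16 involve wild-type replicate 3, wild-type replicate 1 or 5xFAD-Dp16 replicate 2. Among nuclear genes, wild-type replicate 3 had 1231 CPM of Ndufa4 (other wild-type libraries 240.3 to 397.5), 305 CPM of Ndufs4 (59.7 to 97.5), 1145 CPM of Cox7b (185 to 333) and 70.1 CPM of Mrps6 (18.6 to 25.7). The same library had 15.7 CPM of mt-Nd3 (7.24 to 7.70) and a mitochondrial rRNA share of 4.44% (1.40% to 1.86%), and it had the lowest length slope of the 16. Wild-type replicate 1, which had the highest slope, had 10350 CPM of mt-Nd1 (7315 to 7582), 7612 CPM of mt-Nd2 (4976 to 5189) and 23.6 CPM of mt-Nd4l (4.23 to 6.48). 5xFAD-Dp16 replicate 2, with the lowest slope of its group, had 161 CPM of Sdhd (114 to 121), 272 CPM of Cyc1 (193.5 to 204.5), 482 CPM of Atp5c1 (341 to 357) and a mitochondrial rRNA share of 2.42% (1.68% to 1.80%). 5xFAD-Dp16 replicate 3 had 32.2 CPM of mt-Atp8 (11.6 to 12.9), 5xFAD replicate 4 had 7479 CPM of mt-Nd1 (10009.8 to 10320), and Dp16 replicate 3 had a mitochondrial share of counts of 4.00% (5.07% to 5.27%).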

How the results depend on the processing

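edgeR and each alternative run called 0 of 50 members in each of the 6 comparisons. Counts of all genes called moved. In the order 5xFAD, 5xFAD-Dp16 and Dp16 against wild-type, then 5xFAD-Dp16 against Dp16 and against 5xFAD, then the interaction, they were 266, 88, 1, 68, 1 and 0. DESeq2 gave 470, 228, 17, 179, 27 and 1, no low-count filter 426, 258, 20, 236, 42 and 25, the length slope 966, 362, 45, 214, 126 and 0, and the compared groups alone 115, 9, 0, 44 and 20. Without the 3 libraries of lowest slope, a setting picked once the data had been seen, 175 genes were called for 5xFAD-Dp16 against wild-type and 15 against 5xFAD. limma-trend without a filter gave 41 for 5xFAD-Dp16 against Dp16. The replicate block gave 0 calls for Dp16 against wild-type and changed no other count by more than 1.5 times; same-numbered libraries shared only a number, with correlations of −0.354 to 0.514. With each library left out in turn the counts ran from 167 to 290, 40 to 106, 1 to 2, 22 to 127, 1 to 8 and 0 to 0. The mitochondrial share of the RPKM sum was 10.1% in 5xFAD-Dp16, 11.4% in 5xFAD, 8.18% in Dp16 and 9.57% in wild-type. With limma on log2(RPKM + 0.1), the nuclear medians were −0.16 for 5xFAD, −0.14 for 5xFAD-Dp16 and 0.10 for Dp16 against wild-type. In that order 33, 32 and 2 of 37 nuclear members lay below 0, and the medians of all genes were 0.03, 0.06 and 0.03. Without the same 3 libraries, nuclear members below 0 numbered 6 of 37 for 5xFAD, 2 for 5xFAD-Dp16 and 1 for Dp16 against wild-type, against 37, 37 and 22 with all libraries. Of the members named for their p in those comparisons, 7 changed sign, none of them called: Cox5a (0.0063) and Cyc1 (0.087) in 5xFAD against wild-type, Cox8a (0.017) in Dp16 against wild-type, and mt-Co3 (0.19), Ndufb8 (0.17), Ndufb9 (0.13) and Cox7b (0.24) in 5xFAD-Dp16 against wild-type. Without wild-type replicate 3 the same counts were 7, 2 and 1 of 37, and of the members so named Cyc1 (range over libraries left out −0.54 to 0.060), Cox8a (−0.24 to 0.19), mt-Co3 (−0.83 to 0.19), Ndufb8 (−0.89 to 0.14), Ndufb9 (−0.84 to 0.096) and Cox7b (−0.97 to 0.20) changed sign in the same comparisons, and without wild-type replicate 1 so did mt-Nd4l (−0.81 to 0.25) in 5xFAD-Dp16 against wild-type. The cause was not tested. The difference between the genomes ran, with each library left out, from 0.13 to 0.68 for 5xFAD, −0.07 to 0.48 for 5xFAD-Dp16 and −0.50 to 0.05 for Dp16 against wild-type, 0.28 to 0.56 for 5xFAD-Dp16 against Dp16 and −0.34 to −0.07 against 5xFAD. The lowest count of any member in a library was that of mt-Nd4l, which ran from 70 to 402 counts over the libraries.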
